A study of Mus musculus with 43 samples.

Results

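Stra6, Rbp4, Crabp1, Crabp2, Aldh1a1, Aldh1a2, Cyp26b1, Rara and Rarg are 9 genes of the retinoic acid pathway, taken from the 55401 genes of the RNA tables by their GENCODE vM21 symbols. They were selected after Stra6 had been seen to be lower in the Prmt1-dKO testis, so the bulk RNA-seq values of WT and Prmt1-dKO testes are given for them as a description, with no test. The study deleted Prmt1, the main enzyme that deposits asymmetric dimethylarginine, in mouse germ cells and measured RNA and histone marks in the young testis. Bulk RNA-seq was made from total RNA of P7 testes (3 WT and 3 Prmt1-dKO libraries), although the labels give spermatogonia as the cell type, and Smart-seq2 was made from spermatogonia sorted at P7 (2 WT and 2 Prmt1-dKO libraries). CUT&Tag gave 33 peak lists for H4R3me2a, H4R3me1, H4R3me2s, H3R2me2a, H3R8me2a, H3K4me3 and H3K27ac at P7 and P14, of which 2 H4R3me2s lists were from Prmt1-dKO and the others from WT.

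Prmt1-dKO animals carried floxed Prmt1 alleles and Ddx4-GFP-CreERT2, a tamoxifen-activated Cre with GFP driven by the germ cell gene Ddx4, and received tamoxifen on 3 days. The study describes this Cre as specific to germ cells, which was not tested here. The labels call all controls WT, the methods describe sorted controls as heterozygous for the floxed allele with the same Cre. By the methods every animal had a C57BL/6J background, and the labels name that strain for the WT animals of CUT&Tag. The labels give the tamoxifen for WT and Prmt1-dKO samples alike, whereas the methods name it for floxed animals with Cre only. The study's results state that the P7 RNA samples were taken after 3 tamoxifen doses, without naming the genotypes. Whether the WT testes of bulk RNA-seq were from treated animals is thus not clear. If they were not, tamoxifen and genotype cannot be told apart there. The P14 samples are titled spermatogonia and carry spermatocyte as their cell type, and the peak names inside the P14 H4R3me2s lists begin with SD17. The study describes its replicates as biological, and how many animals stand behind a library is not stated.

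Retinoic acid is made from vitamin A and drives the differentiation of spermatogonia and their entry into meiosis. Retinol travels in blood bound to RBP4 and enters cells through the receptor STRA6, retinaldehyde dehydrogenases (ALDH1A enzymes) turn retinal into retinoic acid, CRABP proteins carry it inside the cell, RAR receptors switch genes on when it binds them, and CYP26 enzymes degrade it. In the testis, Sertoli cells are known as an early source of retinoic acid, peritubular cells as a site of its breakdown, and germ cells as its targets.

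The promoters of 4 genes are shown because the RNA or the peaks turned on them: Stra6 and Cyp26b1 differed most between WT and Prmt1-dKO testes, Rbp4 was the member most enriched in sorted spermatogonia, and Aldh1a2 carried peaks in the most lists. The sequences are RefSeq promoter windows on GRCm38.p6, the assembly of mm10, from which bases inside a GENCODE exon were left out. CpG dinucleotides are in capitals.
Stra6, chr9:58128838-58129087, plus strand: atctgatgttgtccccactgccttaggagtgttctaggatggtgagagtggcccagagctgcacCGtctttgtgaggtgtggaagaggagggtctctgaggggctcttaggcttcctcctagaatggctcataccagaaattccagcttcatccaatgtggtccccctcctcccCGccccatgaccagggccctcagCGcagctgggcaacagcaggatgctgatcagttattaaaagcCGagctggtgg
Cyp26b1, chr6:84593909-84594060, minus strand: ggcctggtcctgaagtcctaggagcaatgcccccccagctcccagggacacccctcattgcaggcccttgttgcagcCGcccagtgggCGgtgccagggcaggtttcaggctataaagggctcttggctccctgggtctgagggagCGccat
Rbp4, chr19:38124829-38124954, minus strand: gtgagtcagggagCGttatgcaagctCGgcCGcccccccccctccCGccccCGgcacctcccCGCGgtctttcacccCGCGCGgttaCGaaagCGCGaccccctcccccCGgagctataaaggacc
Aldh1a2, chr9:71215539-71215788, plus strand: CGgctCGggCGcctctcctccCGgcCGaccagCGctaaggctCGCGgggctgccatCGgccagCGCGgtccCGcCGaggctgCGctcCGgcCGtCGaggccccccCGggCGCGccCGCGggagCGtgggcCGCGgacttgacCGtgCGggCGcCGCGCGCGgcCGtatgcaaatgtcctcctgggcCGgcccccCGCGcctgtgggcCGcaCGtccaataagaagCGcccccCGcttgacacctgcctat

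The printed stretch of Aldh1a2 holds 40 CpG in 250 bases and that of Stra6 holds 4 in the same length. RefSeq lists 17 promoter windows of 300 bases (250 before and 50 after a start) for 8 of the 9 genes, some of which overlap. Over all 32851 such windows the median was 7 CpG. The Aldh1a2 window had 50 and the inner Rbp4 window 40, whereas the 4 Stra6 windows had 5 to 10, the Cyp26b1 window 9 and the 2 Aldh1a1 windows 1 and 3. The RAR half-site AGGTCA, searched on both strands, was found in 2 of the 17 windows, 1 of Rara and 1 of Rarg, and in 16.3% of all windows. Direct repeats of the half-site AGGTCA, the variant AGTTCA, the variant GGGTCA or the variant GGTTCA, spaced by 5 bases, were in 0 of the 17 windows and in 0.0974% of all windows, and those spaced by 2 bases in 0 and 0.268%. These letters were searched in the windows only, and matches outside them were not analysed here.

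Levels are given as CPM, counts scaled to a common library size. Library totals were 12396345 to 16598249 expected counts in bulk RNA-seq and 15610392 to 18547103 in Smart-seq2. Prmt1 itself, counted over the whole gene and not over the floxed exons, was at 234 ± 14.1 CPM (SD, n = 3) in WT and 167 ± 27.9 in Prmt1-dKO testes, and at 183 ± 47.5 (n = 2) and 99.5 ± 18.3 in sorted cells. The genotype groups did not overlap in either assay, with an adjusted p by edgeR of 0.0334 in testis and 0.133 in sorted cells. The sorted WT libraries differed from each other: WT replicate 1 had 17069 genes with a count and WT replicate 2 had 15572, against 21350 and 20159 in Prmt1-dKO, and the biological coefficient of variation came to 0.767 among sorted libraries and to 0.155 among testis libraries. Zbtb16, a marker of undifferentiated spermatogonia, was at 57.3 CPM in the first and 1.52 in the second sorted WT library, and at 121 and 109 in the sorted Prmt1-dKO libraries. Other germ cell markers went either way between these WT libraries. Id4 (22 counts in the first and 287 in the second) and Gfra1 (273 and 498) were higher in the second. Sohlh1 (3068 and 1908) and Nanos3 (172 and 135) were lower there. Zbtb16 alone thus does not show which library held fewer undifferentiated cells.

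Levels of somatic cell markers differed between the genotypes in the testis. There, 4 of 6 tested Leydig markers were lower in Prmt1-dKO, among them Cyp17a1, an enzyme of androgen synthesis (75.9 CPM in WT against 2.46), and Insl3, a Leydig hormone (70.1 against 2.77), as were 4 of 6 peritubular markers such as Acta2 and 1 of 10 Sertoli markers, Amh (edgeR, FDR under 0.05 and at least 2-fold). The Leydig marker Lhcgr, the receptor for luteinizing hormone, went the other way without reaching 2-fold (15.1 CPM in WT against 24.4, no overlap, log2 fold change 0.69, adjusted p 0.0223 by edgeR). The summed level of the Leydig list was 438 to 541 CPM in WT and 193 to 217 in Prmt1-dKO testes, and that of the peritubular list 1103 to 1238 and 402 to 817. In sorted cells edgeR called 0 of the somatic markers, as it called 0 of all genes. There the macrophage and endothelial lists were at 0 in both WT libraries and at 19.9 to 25.0 and 3.15 to 3.64 CPM in Prmt1-dKO. The peritubular sums overlapped, at 5.08 to 9.83 CPM in WT and 7.22 to 10.5 in Prmt1-dKO, and the Leydig sums were 0.366 to 8.17 and 10.3 to 13.2. Cyp17a1 was at 0 in all 4 sorted libraries. The Sertoli list stood at 375 to 404 CPM in sorted WT and 614 to 766 in sorted Prmt1-dKO cells. In the testis it stood at 5265 to 5975 CPM in WT and 4063 to 4575 in Prmt1-dKO, without overlap, and all 10 tested Sertoli markers had a fold change below 0 (median log2 −0.36). Of the germ cell markers 0 of 10 were called in the testis, where their sum was 1245 to 1430 CPM in WT and 1196 to 1324 in Prmt1-dKO, and in sorted cells it was 1487 to 1560 and 2080 to 2214. In the testis 6 germ cell markers had a log2 fold change above 0 and 4 below. Ddx4 was at 147 to 169 CPM in WT and 74.4 to 112 in Prmt1-dKO testes, and Id4 at 10.9 to 13.1 and 14.7 to 17.1. Of the macrophage and endothelial markers, 1 of 6 and 0 of 4 were called in the testis. The part of these differences in the values below was not tested. In the testis, fewer cells of a type and less RNA per cell cannot be told apart.

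**Figure D1:**
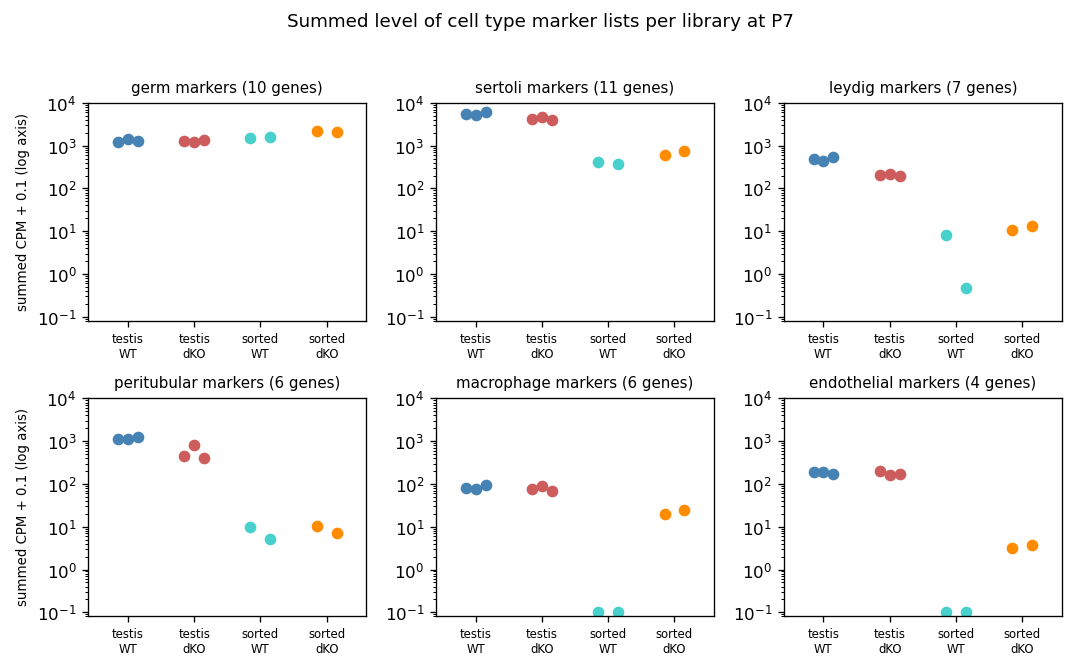
Summed level of 6 marker lists in each P7 library (CPM + 0.1, log axis; CPM scaled within each assay), for WT and Prmt1-dKO testis and sorted spermatogonia. Leydig and peritubular sums were lower in every Prmt1-dKO testis library than in every WT one, and macrophage and endothelial sums were at 0 in both sorted WT libraries.

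To compare the members with each other, TPM values, RSEM levels corrected for transcript length, were used. In WT testis the order of the mean TPM was Aldh1a1 (862 ± 19.3, n = 3), Crabp1 (154 ± 13.0), Cyp26b1 (101 ± 3.59), Rara (88.8 ± 6.13), Stra6 (72.0 ± 2.64), Aldh1a2 (51.8 ± 3.61), Rbp4 (25.4 ± 1.23), Rarg (18.8 ± 0.648) and Crabp2 (1.46 ± 0.196). No neighbours in that order overlapped. In sorted WT spermatogonia the order was Crabp1 (348 ± 12.4, n = 2), Rbp4 (260 ± 5.39), Aldh1a2 (38.2 ± 10.8) and Rara (22.7 ± 4.35), each above the next, followed by Crabp2, Rarg, Stra6, Aldh1a1 and Cyp26b1 at mean TPM of 7.39 to 1.96, where each overlapped its neighbour. The enzyme that led in whole testis, Aldh1a1, was thus among the lowest members in sorted WT cells.

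**Figure D2:**
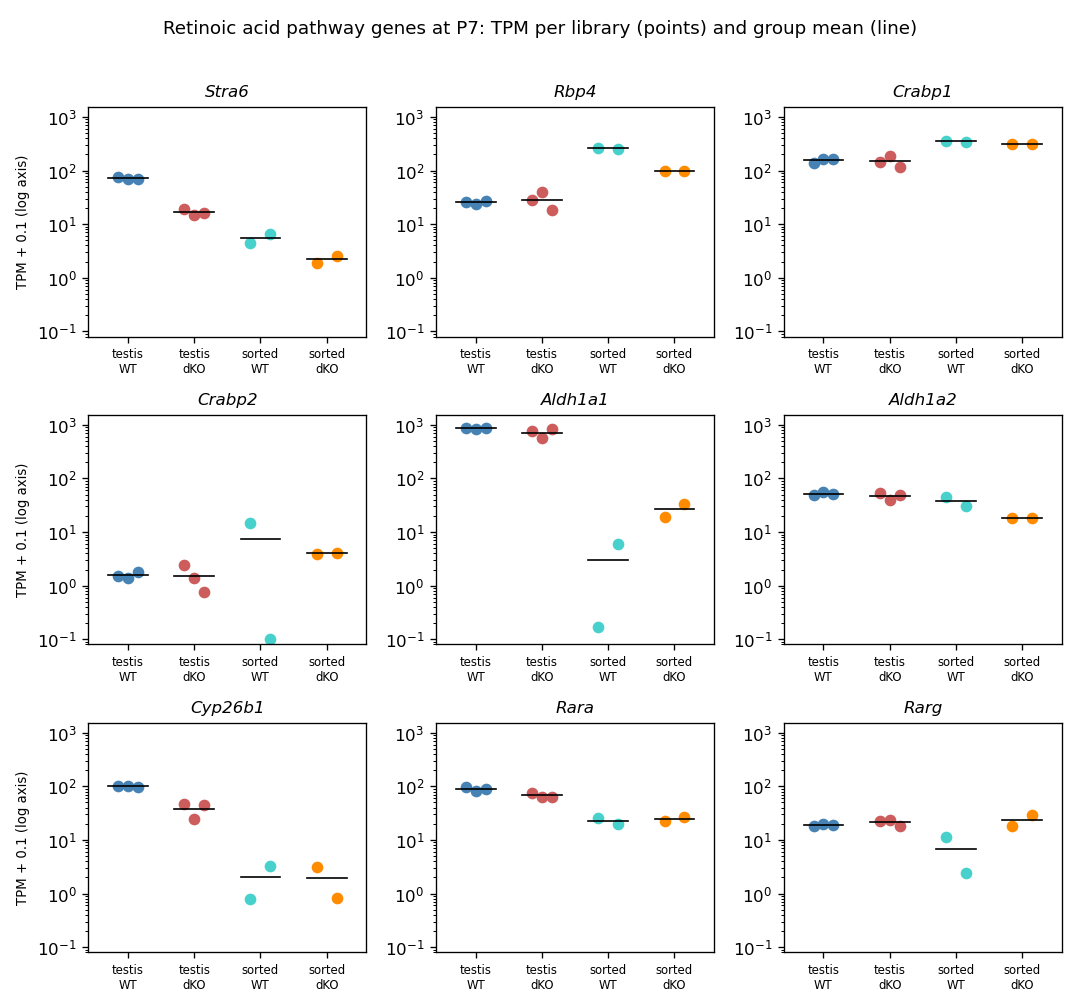
TPM + 0.1 (log axis) of the 9 genes in each P7 library (points) with the group mean (line), for WT and Prmt1-dKO testis (3 libraries each) and sorted WT and Prmt1-dKO spermatogonia (2 each). Stra6 and Cyp26b1 were lower in all Prmt1-dKO testes than in all WT testes, and Rbp4 was at 256 to 263 TPM in sorted WT and 97.6 to 97.7 in sorted Prmt1-dKO cells.

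All 9 members passed the filter on low counts in each comparison. In the testis, the values of Stra6 and Cyp26b1 lay on the lower side of the limits by which edgeR calls were made over all genes (quasi-likelihood test, Benjamini-Hochberg FDR under 0.05 and at least 2-fold). Of the 16554 genes in that fit, 1.78% were lower and 5.32% higher. Since the members were chosen on this contrast, their 2 of 9 is a description and nothing is read from it. The groups did not overlap for 3 of 9 members and for 40.8% of all genes. The members' median log2 fold change was 0.04 and that of all genes 0.02.

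In sorted spermatogonia, edgeR called 0 of the 9 members between Prmt1-dKO and WT, as it called 0 of 16443 genes (0.0%). An unadjusted p under 0.05 was found for 2 of the 9, Rbp4 and Aldh1a2, and for 23.8% of all genes in either direction. Rbp4 also met the 2-fold limit, which 4.12% of all genes met as lower and 13.8% as higher. DESeq2, the tool of the study, called 1 member, Rbp4, as lower, against 3.93% of genes lower and 7.33% higher, and limma-voom called the same gene, with 10.3% of genes called in either direction. The groups did not overlap for 6 of 9 members and for 56.6% of all genes. The median log2 fold change was 0.07 over the members and 0.15 over all genes. Without sorted WT replicate 1, edgeR called 4 members (Rbp4, Crabp2, Aldh1a1 and Rarg), and without WT replicate 2 it called 5 (the same 4 and Aldh1a2), in fits where the remaining WT library is taken to vary like the Prmt1-dKO pair.

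Stra6 is described without a test in the comparison of WT sorted spermatogonia with WT testis (log2 difference −3.76). Of the other 8 members, 2 were higher in sorted cells (Rbp4 and Crabp1) and 3 lower (Aldh1a1, Cyp26b1 and Rara), where 18.7% of 16872 genes were higher and 29.8% lower. The groups did not overlap for 7 of 9 members and for 77.3% of all genes. The median log2 difference was −1.37 over the members and −0.39 over all genes. Library protocol and cells cannot be told apart in this comparison.

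**Figure D3:**
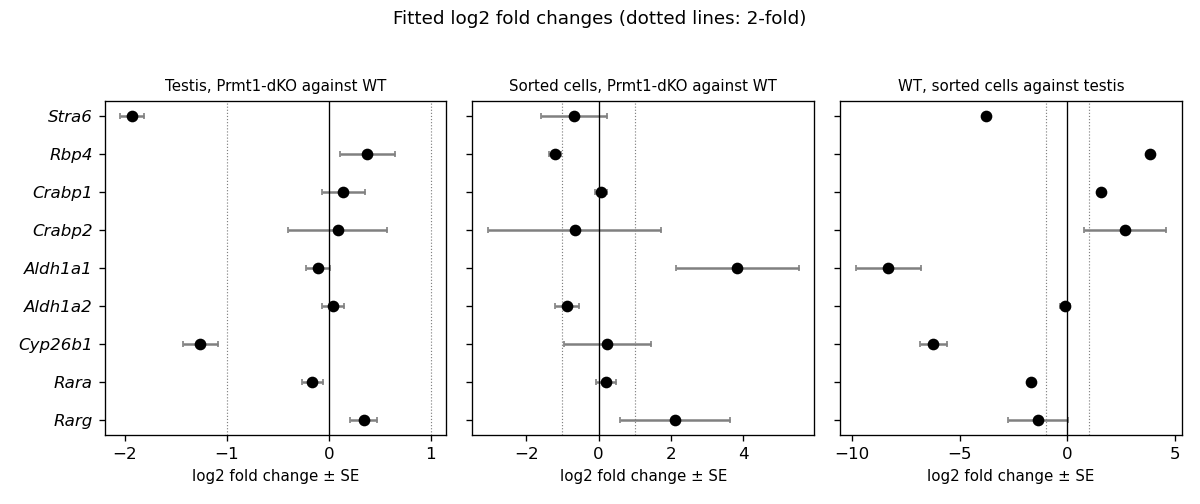
Fitted log2 fold change ± SE of the 9 genes in 3 comparisons, each with its own axis: Prmt1-dKO against WT testis, Prmt1-dKO against WT sorted spermatogonia, and WT sorted spermatogonia against WT testis (dotted lines, 2-fold). Stra6 and Cyp26b1 lie left of the 2-fold line in the first comparison, Rbp4 lies beyond it in the second (−1.20) and far right in the last (3.83).

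Of the genes of retinol uptake and delivery, Stra6 (ENSMUSG00000032327, chr9:58063788-58153996 on mm10, plus strand) encodes the membrane receptor for the retinol carrier. Its level in WT testes was 110, 109 and 111 CPM, and in Prmt1-dKO testes 31.8, 29.5 and 25.4 CPM. The groups did not overlap, and the fitted log2 fold change was −1.93 (SE 0.12), a level 3.80 times lower. In sorted WT spermatogonia Stra6 was at 8.59 and 7.74 CPM, and in sorted Prmt1-dKO cells at 4.57 and 5.63 CPM. These did not overlap either, but the log2 fold change of −0.68 (SE 0.90; 95% interval −4.55 to 3.19) had an adjusted p of 0.755 by edgeR. Scaled together, WT levels were 112 ± 1.14 CPM in testis and 8.25 ± 0.684 in sorted cells (log2 difference −3.76). By CPM scaled within each assay, every sorted library was below every testis library of either genotype. No exon of Stra6 shared bases with an exon of another annotated gene.

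Rbp4 (chr19:38116629-38125281, minus strand) encodes the retinol carrier itself. It was low in the testis, at 10.5, 9.44 and 10.9 CPM in WT and 11.5, 19.9 and 8.94 CPM in Prmt1-dKO, and these groups overlapped. In sorted cells it was at 148 and 147 CPM in WT and 67.3 and 61.4 CPM in Prmt1-dKO. The log2 fold change of −1.20 (SE 0.17; 95% interval −1.94 to −0.46) had an adjusted p of 0.0774 by edgeR, which was the smallest of that comparison and was shared with other genes, and of 3.07e-07 by DESeq2. Over the alternatives the adjusted p ran from that value to 0.9999 by edgeR without Prmt1-dKO replicate 1. Leaving out any of the 4 libraries kept the value between −1.24 and −1.15. The WT difference between sorted cells and testis was 3.83 on the log2 scale (SE 0.12, adjusted p 0.000527 by edgeR). By CPM scaled within each assay, all sorted libraries of both genotypes stood above all testis libraries. In the testis the fitted log2 fold change was 0.38, and −0.017 without Prmt1-dKO replicate 2.

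Among the carriers of retinoic acid inside the cell, Crabp1 (chr9:54764748-54773110, plus strand) was the member with the highest TPM in sorted cells. It was at 166 and 162 CPM in sorted WT and 182 and 162 CPM in sorted Prmt1-dKO cells, which overlapped, with a log2 fold change of 0.07 (95% interval −0.59 to 0.73). Testes gave 48.0, 54.9 and 59.1 CPM in WT and 50.4, 82.8 and 45.8 CPM in Prmt1-dKO, again overlapping. Between WT sorted cells and WT testis Crabp1 was higher by 1.59 on the log2 scale (SE 0.12, adjusted p 0.00125). Crabp2 (chr3:87948666-87953376, plus strand) was rare in the testis, at 5 to 14 counts per library. In sorted WT cells it had 162 counts in replicate 1 and 0 in replicate 2, against 42 and 39 in Prmt1-dKO. Its log2 fold change in sorted cells went from −0.66 with all libraries to 8.46 without WT replicate 1, and gives no direction.

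Among the enzymes of retinoic acid synthesis, Aldh1a1 (chr19:20492715-20643465, plus strand) was the member with the highest TPM in the testis. It was at 1007, 949 and 1034 CPM in WT and 899, 828 and 1051 CPM in Prmt1-dKO, and the groups overlapped. Its counts in sorted WT cells were 2 and 119, and in sorted Prmt1-dKO cells 545 and 828, or 0.10 and 6.23 CPM against 35.1 and 54.8 CPM. Every Prmt1-dKO library was above both WT libraries, but the log2 fold change of 3.83 had an SE of 1.70 and an adjusted p of 0.277 by edgeR. It was 2.87 without WT replicate 1 and 8.68 without WT replicate 2. The Sertoli, macrophage and endothelial sums given above were also higher in the sorted Prmt1-dKO libraries, and their part in this value was not tested. WT sorted cells were 8.32 lower on the log2 scale than WT testis (SE 1.53, adjusted p 0.00987), a difference of −7.40 without sorted WT replicate 1 and of −13.2 without sorted WT replicate 2. Reads could be split between Aldh1a1 and its near-identical paralog Aldh1a7, which had 0 to 9 counts in sorted libraries and 73 to 231 in testis libraries.

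Aldh1a2 (chr9:71215789-71296243, plus strand), the dehydrogenase of early embryos that germ cells of the testis are also known to express, lay between 50.1 and 75.5 CPM in the WT libraries of both assays. Testes gave 61.7, 70.2 and 69.9 CPM in WT and 71.7, 65.0 and 70.9 CPM in Prmt1-dKO, which overlapped. Sorted cells gave 75.5 and 50.1 CPM in WT and 36.4 and 32.4 CPM in Prmt1-dKO, with no overlap and a log2 fold change of −0.87 (SE 0.33, adjusted p 0.208). The WT difference between sorted cells and testis was −0.11 (95% interval −0.81 to 0.59).

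The clearance of retinoic acid is represented by Cyp26b1 (chr6:84571414-84593908, minus strand), a hydroxylase known for keeping retinoic acid low in the fetal testis. It was at 269, 267 and 265 CPM in WT testes and at 128, 79.7 and 127 CPM in Prmt1-dKO testes. Without overlap, the fitted log2 fold change was −1.26 (SE 0.17), a level 2.39 times lower. The peritubular, Leydig and Sertoli marker sums were lower in the same 3 libraries, and their part in this value was not tested. In sorted cells Cyp26b1 was at 1.66 and 5.55 CPM in WT and 5.92 and 2.58 CPM in Prmt1-dKO, overlapping. WT sorted cells were 6.23 lower on the log2 scale than WT testis (SE 0.63, adjusted p 0.002).

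Of the retinoic acid receptors, Rara (chr11:98927818-98974942, plus strand), the receptor best known from Sertoli cells, was at 151, 130 and 149 CPM in WT and 129, 134 and 122 CPM in Prmt1-dKO testes, which overlapped. It was lower in WT sorted cells than in WT testis by 1.67 on the log2 scale (SE 0.15, adjusted p 0.00173). Sorted cells held 49.8 and 40.7 CPM in WT and 51.1 and 53.6 CPM in Prmt1-dKO, with no overlap and a log2 fold change of 0.21 (95% interval −0.96 to 1.38). Rarg (chr15:102234938-102257517, minus strand), the receptor of undifferentiated spermatogonia, was at 28.0, 31.1 and 32.4 CPM in WT testes and slightly higher, at 39.2, 43.3 and 33.6 CPM, in Prmt1-dKO testes, with no overlap and a log2 fold change of 0.34. In sorted WT cells its counts were 446 and 11, and in sorted Prmt1-dKO cells 678 and 888. The genotypes did not overlap, and the log2 fold change of 2.11 (SE 1.53, adjusted p 0.513) was 1.17 without the WT library of 11 counts and 6.47 without the other. The library of 11 counts is the one in which Zbtb16 was also low. Id4 (287 counts against 22 in the other WT library) and Gfra1 (498 against 273) were higher in it. The part of undifferentiated cells in the Rarg counts was not tested.

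The other pathway genes were 37 genes of retinol transport, retinol and retinal conversion, retinoic acid synthesis and clearance, receptors, coregulators and targets. In the testis 26 were tested, edgeR called 0 and DESeq2 called 1 as higher (6.34% of all genes), Rbp2, which the filter on low counts had left out for edgeR. An unadjusted p under 0.05 was found for 11 of the 26 and for 33.9% of all genes. At an FDR under 0.05 without the 2-fold limit, 1 was higher in Prmt1-dKO and 5 lower, against 10.6% and 8.51% of all genes. The higher one was Dhrs3, which reduces retinal back to retinol (26.5 ± 1.46 CPM in WT and 51.9 ± 21.8 in Prmt1-dKO, log2 fold change 0.97, SE 0.25, adjusted p 0.0268). Its highest value, 77.0 CPM, was in Prmt1-dKO replicate 2, and the log2 fold change was 0.57 to 1.14 when a library was left out. Among the lower were Tgm2, a transglutaminase induced by retinoic acid (134 ± 10.1 against 70.5 ± 23.4 CPM, −0.93, adjusted p 0.0199), Fabp5, another carrier of retinoic acid (24.3 against 14.8 CPM, −0.72), and the coactivator Ncoa2 (210 against 126 CPM, −0.73). The median log2 fold change of the 26 was −0.07. Of the receptors, which had no such gene, Rxrb had the largest change (0.17), and its groups overlapped.

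In sorted cells 28 of the 37 were tested and edgeR called 0, with 8 at an unadjusted p under 0.05 (23.8% of all genes). DESeq2 called 4 as higher in Prmt1-dKO (Rdh12, Dhrs3 and Cyp26a1 among them) and 1 as lower (Gm4969, the meiotic activator also named Meiosin), against 7.33% and 3.93% of all genes. By limma-voom 6 were called, against 10.3% of all genes. Dhrs3 had no count in either WT library and 131 and 180 in Prmt1-dKO, which is at least 130-fold higher when WT is set at a floor of 3 counts over the group. Cyp26a1, a clearance enzyme that retinoic acid induces, was also without a count in WT and reached 80 and 117 counts in Prmt1-dKO cells, a level at least 82.4-fold higher, and the receptor Rxrg was likewise at 0 in WT, at least 27.2-fold higher. These bounds cover counting error only, and the genes' adjusted p by edgeR was 0.0774 to 0.0799. With 0 counts in WT, Rdh12, Dhrs3, Cyp26a1 and Rxrg passed the filter on low counts through Prmt1-dKO only. Their calls, adjusted p and bounds are thus a description. In testis, mean CPM in WT and Prmt1-dKO was 3.39 and 2.38 for Cyp26a1, 0.556 and 0.329 for Rxrg, and 0.488 and 1.07 for Rdh12. The macrophage and endothelial sums were also at 0 in sorted WT, and their part here was not tested. Lrat, which stores retinol as esters, had 0 and 155 counts in WT and 26 and 13 in Prmt1-dKO, and with a log2 fold change of −2.65 to 7.42 when a library was left out it gives no direction.

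Of the targets, Stra8 was picked after its value had been seen. Stra8, the meiotic entry factor that retinoic acid induces, was at 103 and 64.2 CPM in sorted WT and 86.4 and 80.4 CPM in sorted Prmt1-dKO cells, which overlapped (log2 fold change 0.00, 95% interval −1.25 to 1.24). Gm4969 was at 123 and 87.9 CPM in sorted WT and 36.3 and 25.2 CPM in sorted Prmt1-dKO cells, without overlap (log2 fold change −1.78, SE 0.32, adjusted p 0.0774 by edgeR, 3.07e-05 by DESeq2 and 0.0915 by limma-voom). In the testis it was at 9.23 to 10.1 CPM in WT and 9.83 to 22.2 CPM in Prmt1-dKO, where the groups overlapped.

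Promoter peaks were counted for each member where a peak summit lay within 3000 bp of any annotated transcript start, and marked genes were those with such a peak in 2 or more lists of a group. H3K4me3, the mark of active or poised promoters, was found at 7 of 9 members in each of the 4 lists, at P7 and at P14: Rbp4, Crabp1, Aldh1a1, Aldh1a2, Cyp26b1, Rara and Rarg. Of 21938 protein-coding genes, 60.7% were marked at P7 and 63.1% at P14. Stra6 and Crabp2 had 0 H3K4me3 promoter peaks in the 4 lists, and for Stra6 the nearest H3K4me3 summit to any start was 22922 bp away. The cells for CUT&Tag were testis cells filtered to remove somatic cells, not the sorted cells.

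The position of the H3K4me3 peak differed between members. Aldh1a2, with its CpG-dense promoter, had the strongest peaks by q, with a −log10 q of 26.2 to 37.5 at 294 to 570 bp downstream of its start. Its fold enrichment was 5.98 to 6.78, which overlapped that of Rbp4, at 4.74 to 6.50 and 146 to 394 bp from a start. Cyp26b1 had the weakest fold enrichment, at 2.76 to 3.38, which was no higher than percentile 9.55 of the fold enrichments in a list. Its peaks lay at starts 5270 to 6228 bases inside the gene, while the upstream start next to the printed promoter had 0 of 4 lists within 3000 bp. Aldh1a1 was marked at the start at chr19:20601961 and not at the starts 109246 bases upstream of it.

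H3K27ac, a mark of active promoters and enhancers, was at Aldh1a2, Rara and Rarg at P7 (3 of 9 members, 30.9% of genes) and also at Aldh1a1 at P14 (4 of 9, 48.9%). H4R3me2a, which Prmt1 deposits, was at 1 of 9 members at either age, Aldh1a2, in 2 of 3 lists at P7 (15.3% of genes) and 3 of 3 at P14 (49.0%). The P7 peaks of Aldh1a2 were weak, with a fold enrichment of 2.76 to 3.59 and a −log10 q of 0.220 to 0.972, and at a q of at most 0.01 the P7 count was 0. At P14 they had a fold enrichment of 3.29 to 4.89 and a −log10 q of 1.31 to 4.76. No other member had an H4R3me2a promoter peak in more than 1 list of either age. Of the 37 other pathway genes, H4R3me2a marked 7 at P7 and 21 at P14, and H3K4me3 marked 24 and 26.

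H3R2me2a was at Rbp4 and Aldh1a2 at P7 (2 of 9, 10.9% of genes) and at Rbp4, Aldh1a2, Rara and Rarg at P14 (4 of 9, 51.3%). H3R8me2a was at 0 of 9 at P7 (9.67%) and at Aldh1a2 at P14 (1 of 9, 33.0%), and H4R3me1 at Rarg at P7 (1 of 9, 10.8%) and at Aldh1a2 and Cyp26b1 at P14 (2 of 9, 29.9%). The lists also held more peaks at P14, a median of 33873 against 19981 at P7, and the part of list size in the larger counts at P14 was not tested. Over all 33 lists Aldh1a2 had a promoter peak in 27, Rara in 18, Rarg in 17, Rbp4, Crabp1 and Aldh1a1 in 11, Cyp26b1 in 10, Stra6 in 9 and Crabp2 in 5. The sequence searched differed between members. Stra6 had 12 distinct starts, Rara and Rarg 7, Aldh1a1 and Cyp26b1 5, Rbp4 4, Crabp2 2, and Aldh1a2 and Crabp1 1.

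H4R3me2s, the symmetric form, was at Stra6 and Aldh1a2 in WT at P7 (2 of 9, 17.7% of genes), at Crabp1 in Prmt1-dKO at P7 (1 of 9, 9.77%) and at Aldh1a1 and Aldh1a2 in WT at P14 (2 of 9, 34.2%). The Stra6 peaks lay at −1866 and −2312 bp from a start at chr9:58063788, 65300 bases from the start at the printed promoter, with a −log10 q of 0.631 and 0. The Crabp1 peaks in Prmt1-dKO had a −log10 q of 0 and 0.0142. With 2 lists per genotype the difference between WT and Prmt1-dKO was not tested, and at a q of at most 0.01 the count was 0 in both.

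**Figure D4:**
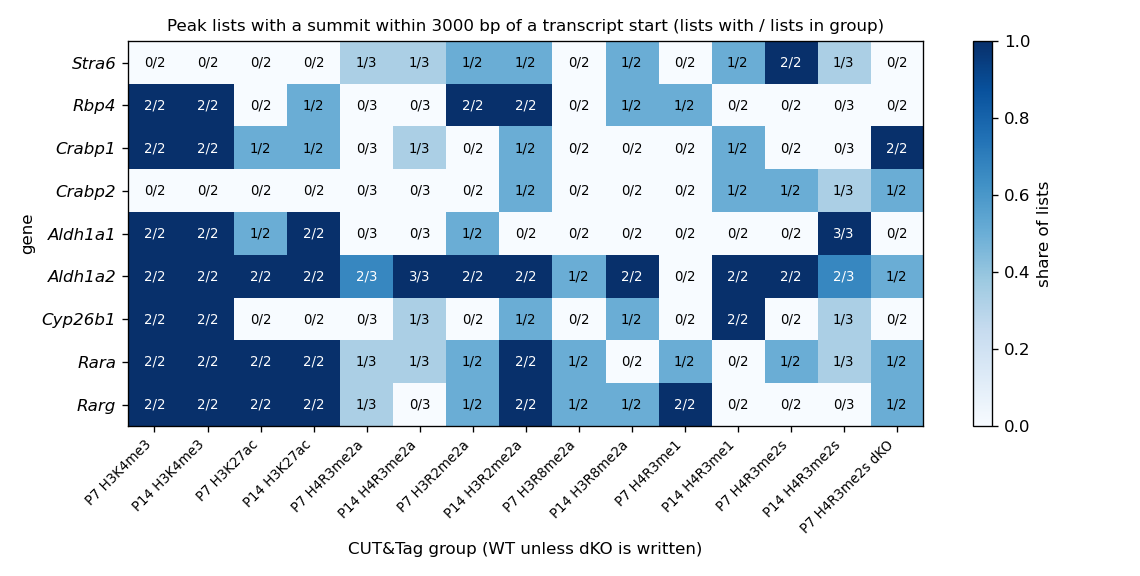
Number of peak lists with a summit within 3000 bp of a transcript start over the lists of the group, for the 9 genes (rows) and 15 CUT&Tag groups (columns; WT unless dKO is written), shaded by the share of lists. H3K4me3 was in 2 of 2 lists for 7 genes at both ages and in 0 of 2 for Stra6 and Crabp2, and Aldh1a2 was marked most widely.

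Among the 5 genes whose profile over the 6 bulk libraries was closest to that of Stra6, by the root mean square difference of log2 CPM, each gene centred on its WT mean, among 12953 genes with a mean of at least 50 counts, were Cadps (0.0847), Lars2 (0.0915), Spp1 (0.228) and mt-Rnr2 (0.234). Cadps encodes a factor of regulated secretion, Lars2 the mitochondrial leucyl-tRNA synthetase, Spp1 osteopontin and mt-Rnr2 the large mitochondrial ribosomal RNA. Lars2 went from 725 to 198 CPM and mt-Rnr2 from 660 to 195 CPM. Whether reads are shared between Lars2 and mt-Rnr2 was not tested. As the profile is that of the contrast by which Stra6 was chosen, these levels are a description.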

How the data were processed

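The authors trimmed reads with fastp 0.23.2 (per the submitters' processing notes), mapped them to mm10 with STAR and deposited, per library, RSEM expected counts, TPM and FPKM for 55401 genes. The deposited FPKM were not used here. Deposited expected counts were rounded to whole numbers before testing, and deposited TPM were used only to compare levels between genes. Of the gene identifiers, 55141 matched GENCODE vM21 with the version ignored. Per the file headers and the methods, the authors called CUT&Tag peaks per sample with MACS2 2.1.0, and the deposited lists give a fold enrichment ratio and −log10 p and q, where peak names carry a p threshold of 0.005 (for H3K4me3 a q threshold of 0.05), so that many peaks are weak.

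From the counts, CPM was computed within each comparison after TMM scaling, genes were filtered with filterByExpr, and edgeR 4.0.16 (R 4.3.3) quasi-likelihood tests were run over all genes with Benjamini-Hochberg adjustment. Genes were called at an FDR under 0.05 and a fold change of at least 2. Adjusted p-values in the text are those of edgeR unless DESeq2 is named, and intervals are at 95%. The groups came from the labels. Alternatives were RLE scaling, no filter, DESeq2 1.42.0, limma-voom (limma 3.58.1), the replicate number as a block, leaving out each library, and for peaks a 1000 bp window, any peak base in the window, a q of at most 0.01 and 1 list in place of 2. The procedure was tested on simulated data.

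The members and all gene lists were chosen with earlier results of these data known. Text names all 9 members, called pathway genes or else the largest change per role, the 5 profiles nearest to Stra6, Prmt1 and defining markers. Other genes named were picked after their values were seen. Some genes that this rule covers are not reported here. Promoter sequences are from RefSeq (GRCm38.p6), in which 8 of 9 members were matched. Bounds from 0 counts use 3 counts over the group and cover counting error only. Counts of strand-overlapping genes and of Aldh1a7, similar to Aldh1a1, could be split by the counting.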

Additional observations from a re-analysis of the deposited data

How the results depend on the processing

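H3K4me3 marked 7 members at P7 and P14 under the alternatives that gave a count, except 6 at P7 in a 1000 bp window, where Crabp1 dropped out. In sorted cells, 0 members were called by edgeR, 1 by DESeq2, 1 by limma-voom and 0 to 5 when a library was left out. Of the other pathway genes, 0 were called there by edgeR, 5 by DESeq2, 6 by limma-voom and 0 to 15 when a library was left out. In the testis 0 of them were called, 1 with no filter, 1 by DESeq2 and 0 to 2 when a library was left out. Between WT sorted cells and WT testis 6 members were past the limits, among them Stra6, which is only described there, and 6 to 8 when a library was left out.

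Replicate numbers are only names here (same-number correlations in the testis 0.08, −0.22 and −0.12, in sorted cells 0.02). With the replicate block, 0 members were called in sorted cells, and 0 in place of 6 between WT sorted cells and WT testis.

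In the testis, where the members' values are described without a test, the fitted log2 fold change turned direction for Rbp4 (−0.017) and Crabp1 (−0.17) without Prmt1-dKO replicate 2, for Crabp2 (limma-voom −0.048, −0.35 to 0.45 when a library was left out) and for Aldh1a2 (−0.034 to 0.084 when a library was left out). It turned in sorted cells for Crabp2 (limma-voom 2.53, replicate block 2.34, −1.65 to 8.46 when a library was left out, the highest without WT replicate 1) and Cyp26b1 (−0.46 to 1.38 when a library was left out, with −0.36 without WT replicate 1 and −0.46 without Prmt1-dKO replicate 1). Between assays it turned for Crabp2 (limma-voom −0.51, replicate block −0.013, −6.44 to 3.63 when a library was left out, the lowest without sorted WT replicate 1) and Aldh1a2 (−0.51 to 0.092, the highest without sorted WT replicate 2). The causes were not tested.

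Counts of marked members depended on the peak rules. At a q of at most 0.01, the count was 0 for P7 H3K27ac, H3R2me2a, H4R3me1, H4R3me2a, H4R3me2s and Prmt1-dKO H4R3me2s and for P14 H4R3me2s, and 1 for P14 H3R2me2a and H4R3me1. With a peak in 1 list, it was at P7 5 for H3K27ac, 6 for H3R2me2a, 3 for H3R8me2a, 3 for H4R3me1, 4 for H4R3me2a, 4 for H4R3me2s and 5 for Prmt1-dKO H4R3me2s, and at P14 8 for H3R2me2a, 5 for H3R8me2a, 5 for H4R3me1, 5 for H4R3me2a and 6 for H4R3me2s. In a 1000 bp window, it was 0 for P7 H4R3me1, 1 for P7 H4R3me2s and 0 for Prmt1-dKO H4R3me2s. Leaving out a list gave, at P7, 3 to 5 for H3K27ac, 4 for H3R2me2a, 0 to 3 for H3R8me2a, 1 to 3 for H4R3me1, 0 to 1 for H4R3me2a, 3 for H4R3me2s and 3 for Prmt1-dKO H4R3me2s, and at P14 6 for H3R2me2a, 3 for H3R8me2a, 3 to 4 for H4R3me1 and 1 to 2 for H4R3me2s. Where a group had 2 lists, leaving 1 out means that the remaining list alone decides. At the depth of the sorted libraries, Stra6, Crabp2, Cyp26b1, Aldh1a1 and Rarg in WT rested on 162 counts or fewer in at least 1 library.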
